A study of Mus musculus with 11 samples.

Results

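Mice given 4 injections of doxorubicin (DOX4X) were compared with mice given 1 injection (DOX1X), in stromal cells sorted from bone marrow. The comparison takes its libraries by their labels alone and uses 7 of the 11 libraries of the series, 4 DOX4X and 3 DOX1X. The other 4 libraries, from animals injected 4 times with phosphate-buffered saline (PBS) into a vein, are given as the background. All mice were female and carried Lepr-Cre and 1 copy of LSL-tdTomato, so that cells which express, or descend from cells that expressed, the leptin receptor are marked red. The DOX1X mice, described as young adults, received a single intravenous dose of 10 mg/kg. The DOX4X mice, 8 to 10 weeks old, received 4 intravenous doses of 5 mg/kg with 1 week between them, which adds up to 20 mg/kg against 10 mg/kg. Marrow was collected 8 weeks after treatment in all groups, and the labels do not say whether that time runs from the first or the last injection. Number of injections, dose per injection, total dose and length of treatment change together between these groups and cannot be told apart.

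Leptin receptor-positive stromal cells surround the marrow sinusoids and are the main source of Cxcl12 and of Kit ligand, the factors that hold and maintain blood stem cells. They are also the progenitors of bone-forming osteoblasts and of marrow adipocytes in the adult. Doxorubicin is an anthracycline that traps topoisomerase II on DNA and produces breaks, which the p53 pathway senses. Marrow stroma and sinusoidal vessels are both known to be injured by chemotherapy.

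The 11 libraries held 29540422 to 42784036 counts each. Stromal markers were abundant in every library, with Lepr between 3939 and 7661 CPM (counts scaled to library size with TMM factors, the unit of all levels below) and Cxcl12 between 46059 and 59804 CPM. No defining marker of another marrow cell type that the table lists was at 0 in any library. Cdh5 of endothelium ran from 4.14 to 36.3 CPM, Cd79a of B cells from 10.9 to 65.1 CPM, Ngp of neutrophils from 2.03 to 83.7 CPM and Pf4 of platelets from 19.6 to 223 CPM, so the sorted material held RNA of other cells. In such bulk samples, fewer cells of a type and less RNA per cell cannot be told apart. The labels call the animals separate biological replicates. Flow cell was inferred from 2 run codes in the names that the libraries bear in the counts. Every PBS library shared a code with the first 2 DOX1X libraries, here called flow cell 1. DOX1X 3 shared the other code with every DOX4X library, here called flow cell 2. The lane ending of these names changed together with the code, so flow cell and lane cannot be told apart. The difference between schedules can therefore be set within a flow cell only against DOX1X 3, a single library. DOX4X and PBS shared no flow cell, so every DOX4X value set against PBS below also crosses the flow cells and has no value within one. DOX1X values set against PBS cross them through DOX1X 3. The title of PBS 4 names doxorubicin while its treatment label is PBS, and it was kept as PBS.

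Few genes separated the schedules. Of 17838 genes tested with edgeR's quasi-likelihood test, 1 passed an adjusted p of 0.05, which is 0.00561% of the genes tested, and it was lower in DOX4X. No gene passed in the higher direction. At an unadjusted p below 0.05 there were 398 genes higher in DOX4X (2.23%) and 380 lower (2.13%), 778 in all (4.36%) against 891.9 expected if no gene differed. In 569 genes (3.19%) every DOX4X library stood above every DOX1X library, and in 497 genes (2.79%) every one stood below. The median log2 fold change over all genes was -0.0011, with 8869 genes higher and 8969 lower. For the median gene the 95% interval of the log2 fold change reached 0.41 to either side before adjustment. Larger differences also missed the adjusted threshold, such as that of Arap3 (log2 1.16, edgeR adjusted p = 0.886). In the same fit, 26 genes (0.146%) passed for DOX4X against PBS and 1 gene (0.00561%) for DOX1X against PBS. The first of these counts crosses the flow cells in every library, and the second does so through DOX1X 3. DESeq2 on the same counts gave 27 genes between the schedules, 20 higher and 7 lower in DOX4X, and limma-voom gave 1.

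The gene past the threshold was Ighv5-17, a variable segment of the antibody heavy chain. Its level was 12.7, 14.0 and 5.81 CPM in DOX1X 1 to 3 and 0.385, 0.293, 0.211 and 0.245 CPM in DOX4X 1 to 4. The PBS libraries held 0.152, 0.10, 0.162 and 0.0334 CPM. Each DOX1X library was far above every other library, and DOX4X stood near PBS. The reads behind these levels were 521, 463 and 221 counts in DOX1X and 14, 10, 7 and 9 in DOX4X. The log2 fold change was -5.24 (SE 0.40, 95% interval -6.12 to -4.36, edgeR adjusted p = 0.000493), a level 37.8-fold lower in DOX4X. Against PBS the log2 difference of this segment was 6.53 for DOX1X (edgeR adjusted p = 0.000129) and 1.29 for DOX4X (edgeR adjusted p = 0.257). Within flow cell 2 alone, with DOX1X 3 as the only single-dose library and assumed to vary like the DOX4X libraries, its log2 fold change was -4.33 and its edgeR adjusted p was 0.0706, so the call was lost there.

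Antibody segments are joined differently in each B cell, and a plasma cell clone transcribes its own segment at a very high level. Reads of near-identical segments may have been shared or discarded in counting, so a single segment is uncertain as a gene. Of 56 heavy and light chain variable segments tested, 26 were higher and 30 lower in DOX4X, with a median log2 fold change of -0.34. At an unadjusted p below 0.05 in edgeR there were 1 higher and 13 lower, where the shares over all genes were 2.23% and 2.13%. Without overlap between schedules there were 0 higher and 2 lower, where those shares were 3.19% and 2.79%. Several of the 13 stood high in 1 DOX1X library only. Igkv1-110 was at 34.3, 0.27 and 0.05 CPM and Igkv14-111 at 0.12, 0.12 and 36.4 CPM in DOX1X 1 to 3. The 1 higher, Igkv1-135, stood high in DOX4X 2 only, at 20.9 CPM. The heavy chain segment with the most counts was a different one in each library, except that Ighv9-3 came first in both PBS 4 and DOX4X 1. Among kappa light chain segments, Igkv6-15 came first in both PBS 2 and DOX4X 4. In PBS 1, Ighv1-58 held 78.0% of 2635 heavy chain variable counts (exact 95% interval 76.4 to 79.6%). In DOX4X 3, Ighv10-1 held 66.4% of 1260 (63.7 to 69.0%). In DOX1X 2, Ighv11-2 held 32.2% of 2711 (30.4 to 34.0%), followed by Ighv5-17 with 17.1%. These intervals cover counting error only. The 2 libraries with the fewest such counts, DOX4X 1 with 395 and PBS 4 with 175, had no dominant segment: the leading one held 6.08% (3.93 to 8.91%) and 9.71% (5.76 to 15.1%).

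Other antibody genes showed the same unevenness between animals. These genes were chosen after their values were seen. Jchain, which links antibody subunits and is made by plasma cells, had 5478, 3571 and 4039 counts in DOX1X and 0, 4009, 1956 and 2523 in DOX4X, with 2464, 1544, 2357 and 4 in PBS. It was absent or nearly so in DOX4X 1 and PBS 4 and abundant in the other 9 libraries. Ighg1, a constant region of class-switched antibody, had 5065, 0 and 5468 counts in DOX1X, 0, 0, 0 and 0 in DOX4X and 1, 3891, 8063 and 0 in PBS. Ighg1 was thus present in 2 of 3 single-dose animals, 2 of 4 PBS animals with more than 1 count, and none of the 4 four-dose animals, where 0 counts allow up to 3 counts a library. Igha, the constant region of mucosal antibody, had 13457, 0 and 3761 counts in DOX1X and 0, 9449, 3392 and 2198 in DOX4X, with 0, 3603, 1394 and 0 in PBS. It had 0 counts in 1 library of each schedule and in 2 PBS libraries. The light chain segment Igkv3-4 had 3, 469 and 413 counts in DOX1X and 2, 10, 0 and 2 in DOX4X, with DOX1X 1 as low as the DOX4X libraries.

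**Figure D1:**
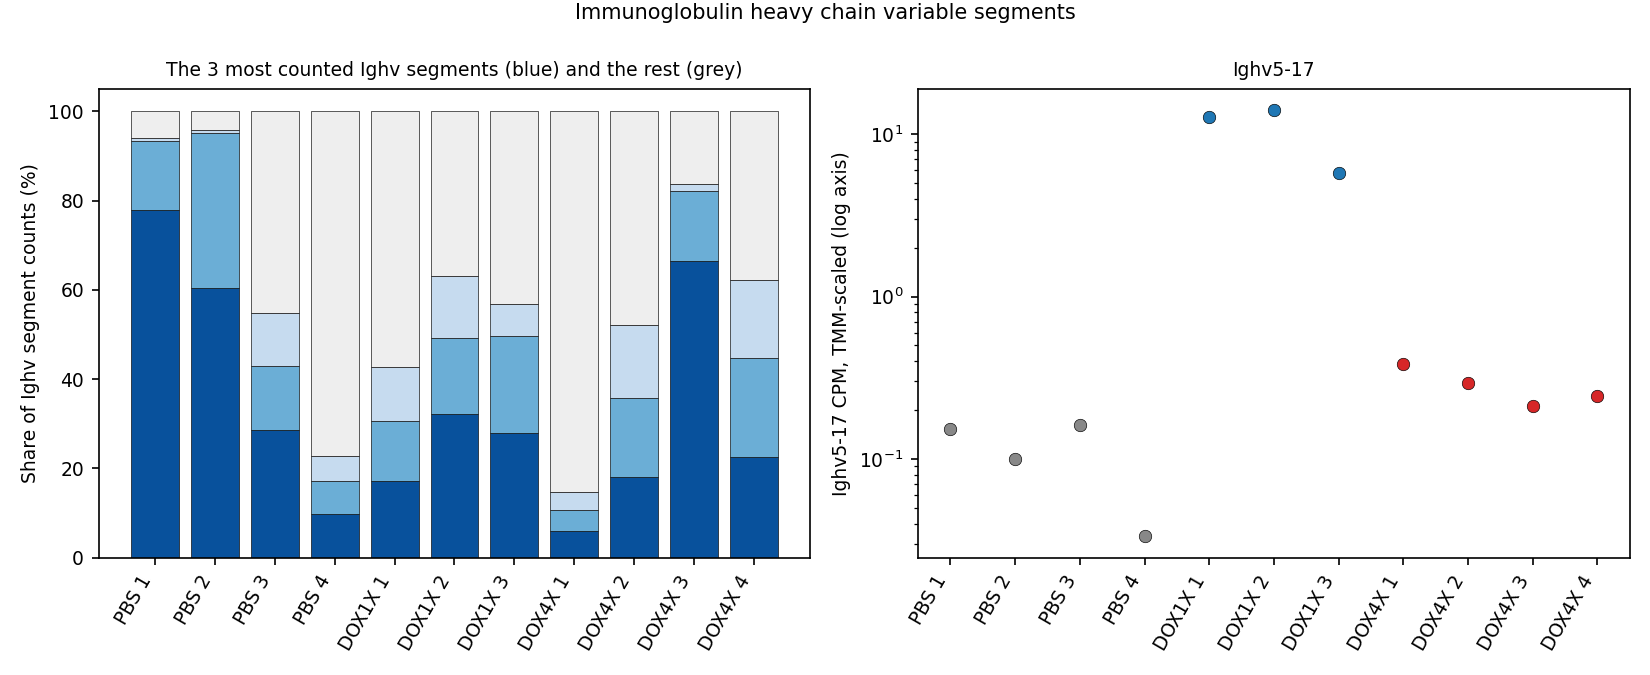
Left, share in percent of all heavy chain variable (Ighv) counts taken by the 3 most counted segments of each library (blue, darkest first) and by the remaining segments (grey). Right, Ighv5-17 level in each library in TMM-scaled CPM on a log axis: the 3 DOX1X libraries lie at 5.81 to 14.0 CPM and the 4 DOX4X libraries below 0.4 CPM.

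Markers of blood vessel endothelium had the highest median of the 37 gene lists examined, though no member passed the threshold with edgeR. Of 23 endothelial markers, all tested, 22 were higher in DOX4X, and these 22 had an unadjusted p below 0.05 where the background was 2.23% of genes. In 20 of the 23, every DOX4X library stood above every DOX1X library, where the background was 3.19%. The median log2 fold change of the list was 1.51, against -0.0011 over all genes. By DESeq2, 1 of the 23 (Cdh5) passed, and by limma-voom 0. Summed over the list, the level was 331, 527 and 593 CPM in DOX1X 1 to 3 and 842, 1507, 1112 and 952 CPM in DOX4X 1 to 4. The PBS libraries held 806, 967, 516 and 243 CPM. Every DOX4X library was above every DOX1X library, while PBS ranged across both groups, from below the lowest DOX1X library to above the lowest DOX4X library.

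Eng, an accessory receptor for TGF-beta on endothelium, was at 72.7, 73.6 and 79.0 CPM in DOX1X, 90.3, 132, 109 and 102 CPM in DOX4X and 95.1, 86.9, 80.6 and 66.8 CPM in PBS. The schedules did not overlap, and the log2 fold change was 0.53 (SE 0.14, edgeR adjusted p = 0.886). Cdh5, the cadherin that joins endothelial cells, was at 5.31, 5.52 and 11.6 CPM in DOX1X, 21.0, 36.3, 24.3 and 20.3 CPM in DOX4X and 16.9, 19.3, 11.7 and 4.14 CPM in PBS. Its log2 fold change was 1.76 (SE 0.46, edgeR adjusted p = 0.886), and DOX1X 3 stood at about the level of PBS 3. Gpihbp1, which carries lipoprotein lipase across capillaries, was at 3.50, 3.79 and 8.25 CPM in DOX1X and 11.8, 23.2, 18.8 and 13.7 CPM in DOX4X (log2 1.7, SE 0.49). Mmrn2, an endothelial matrix protein, was at 9.52, 13.4 and 22.1 CPM in DOX1X and 40.4, 77.7, 52.3 and 44.8 CPM in DOX4X (log2 1.84, SE 0.54). Emcn, the sialomucin endomucin of sinusoids and veins, was at 7.12, 8.76 and 15.5 CPM in DOX1X and 19.3, 31.8, 25.8 and 20.1 CPM in DOX4X (log2 1.21, SE 0.36). In all 5 genes the DOX4X 2 library was the highest of the series. With flow cell as a term the log2 fold changes were 1.13 for Cdh5 and 1.03 for Gpihbp1.

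Against PBS, Cdh5 differed by a log2 of 0.97 in DOX4X and -0.80 in DOX1X, and Mmrn2 by 0.97 and -0.87. Over the 23 markers the medians against PBS were 0.82 for DOX4X and -0.58 for DOX1X. Both comparisons share the PBS libraries. The exception in the list was Vwf, the clotting factor carrier made by endothelium and also by megakaryocytes, at 28.2, 141 and 23.9 CPM in DOX1X and 45.3, 25.9, 12.6 and 35.3 CPM in DOX4X (log2 -1.11, SE 0.66). Its high value came from DOX1X 2, the library that also had the highest sum of megakaryocyte and platelet markers, 2127 CPM against 119 to 989 CPM elsewhere. The part of platelets in the Vwf value was not tested.

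The endothelial difference was smaller against the single-dose library run on the same flow cell. DOX1X 3, the single-dose library run beside DOX4X, had the highest endothelial sum of its group. With flow cell as a term the median log2 fold change of the list was 0.92 and all 23 members stayed higher, but 0 had an unadjusted p below 0.05. Within flow cell 2 alone all 23 members also stayed higher. Without DOX1X 1, 13 of 23 had an unadjusted p below 0.05 in edgeR, and the share over all genes in that fit is not given here. The median stayed between 0.92 and 1.82 under all alternatives that kept these genes.

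**Figure D2:**
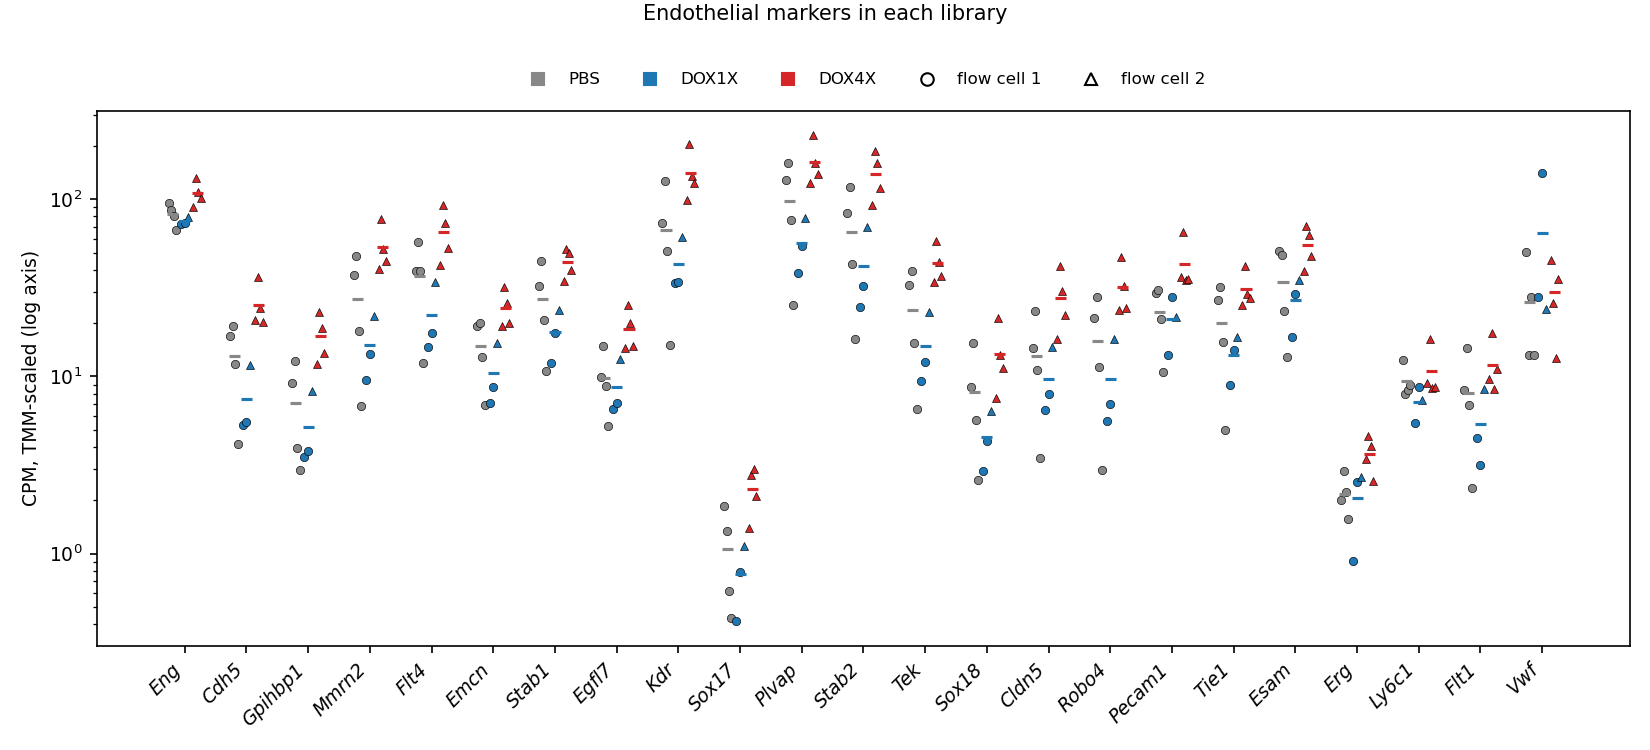
Levels of the 23 endothelial markers in TMM-scaled CPM on a log axis, ordered by p. Each point is a library (circle, flow cell 1; triangle, flow cell 2), coloured by group, and bars are group means; in 20 markers all DOX4X points lie above all DOX1X points, and Vwf is the one marker with a lower DOX4X mean.

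The 10 genes highest in DOX4X by p had log2 fold changes from 0.34 to 1.46 and an edgeR adjusted p of 0.886 each. DESeq2 called each of them, with DESeq2 adjusted p values from 0.00385 (Arap3) to 0.0490 (Sema6b). Over all 17838 genes it called 20 in this direction. None of the 10 passed with limma-voom. They were ranked among genes that averaged at least 5 CPM over the doxorubicin libraries. Clone names (Gm and Rik) and antibody and T cell receptor segments were left out. In each of the 10 genes the schedules did not overlap. Several of them are known from endothelium. Arap3, a GTPase regulator needed for vessel sprouting, was at 9.08, 8.43 and 8.25 CPM in DOX1X and 17.2, 24.3, 19.2 and 16.1 CPM in DOX4X, with 12.5, 16.1, 12.2 and 7.14 CPM in PBS (log2 1.16, SE 0.23). Its DOX1X libraries lay close together, and its log2 fold change stayed between 1.03 and 1.29 under all alternatives, the flow cell term included. Notch4, an endothelial Notch receptor, was at 3.74, 3.03 and 3.84 CPM in DOX1X and 6.97, 7.99, 7.43 and 8.53 CPM in DOX4X (log2 1.13, SE 0.26). Scarf1, an endothelial scavenger receptor, was at 5.24, 6.55 and 8.15 CPM and 11.7, 17.9, 17.4 and 15.9 CPM (log2 1.24, SE 0.28). These were 2.18-fold and 2.37-fold levels, and neither passed in edgeR, while DESeq2 called both.

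Tfpi, the inhibitor of the tissue factor pathway of clotting, was at 178, 158 and 249 CPM in DOX1X and 312, 462, 375 and 298 CPM in DOX4X, with 257, 312, 259.5 and 199 CPM in PBS (log2 0.89, SE 0.20). Its log2 fold change was 0.54 with the flow cell term. Sema3f, a secreted semaphorin that repels axons and endothelial cells, was at 2.13, 2.09 and 3.42 CPM and 5.81, 10.6, 6.32 and 5.23 CPM (log2 1.46, SE 0.33). Casp8, the initiator caspase of death receptor signalling, was at 38.9, 39.8 and 39.7 CPM in DOX1X and 51.2, 52.1, 48.6 and 47.8 CPM in DOX4X, with 44.0, 42.7, 42.5 and 37.7 CPM in PBS. The difference was small but even, with a log2 fold change of 0.34 (SE 0.07), and the PBS libraries lay between the schedules except PBS 4. Acer2, a Golgi ceramidase, had a log2 fold change of 0.85 (SE 0.19). The other three genes were Myzap (1.15), Lratd2 (1.16) and Sema6b (0.77).

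Mural cells, the pericytes and smooth muscle around vessels, had markers that leaned the same way. Of 13 mural markers, 12 were higher in DOX4X, 3 with an unadjusted p below 0.05 (edgeR, none past the adjusted threshold) and 1 without overlap between the groups, with a median log2 fold change of 0.74. The shares over all genes were 2.23% and 3.19%. Kcnj8, a pericyte potassium channel subunit, was at 11.2, 14.3 and 21.1 CPM in DOX1X and 20.8, 49.2, 43.4 and 27.9 CPM in DOX4X (log2 1.18, SE 0.36). Rgs5, a pericyte regulator of G protein signalling, was at 116, 201 and 270.4 CPM and 192, 326, 524 and 305 CPM, and PBS spread from 144 to 485 CPM. The mural median was 0.26 with the flow cell term, and the log2 fold changes were 0.74 for Kcnj8 and 0.32 for Rgs5.

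Fat cell genes leaned higher with 4 doses. Of 23 adipocyte and lipid storage genes tested, 21 were higher, 7 with an unadjusted p below 0.05 and 9 without overlap, with a median log2 fold change of 0.22, or 0.46 with the flow cell term. The shares over all genes were 2.23% and 3.19%. None passed the adjusted threshold in edgeR. Fabp4, a fatty acid carrier of adipocytes and capillaries, was at 92.6, 87.7 and 192 CPM in DOX1X and 237, 513, 406 and 271 CPM in DOX4X, with 163, 191, 99.1 and 80.9 CPM in PBS (log2 1.53, SE 0.38). Cd36, a fatty acid transporter of both cell types, was at 18.4, 18.8 and 21.5 CPM and 40.6, 78.3, 62.7 and 42.0 CPM (log2 1.51, SE 0.42). DOX4X 2, the library with the highest endothelial sum, was the highest in both. Fabp4 gave 0.90 with the flow cell term. Pparg, the master regulator of adipocytes, was at 131, 135 and 119 CPM in DOX1X and 149.7, 189, 189 and 172 CPM in DOX4X (log2 0.45, 95% interval 0.12 to 0.77). Cfd, the adipocyte-secreted complement factor also called adipsin, was at 3.94, 2.00 and 2.68 CPM and 6.69, 12.0, 11.8 and 6.43 CPM (log2 1.68, SE 0.52), the highest fold change of the list. Adipoq, the adipokine that marrow stromal cells transcribe strongly, was at 2806, 2198 and 2492 CPM in DOX1X and 2383, 2674, 2984 and 2798 CPM in DOX4X (log2 0.12, 95% interval -0.17 to 0.40), and the groups overlapped. The part of endothelial RNA in the Fabp4 and Cd36 values was not tested.

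Genes of bone and extracellular matrix leaned lower with 4 doses. No member of these lists passed the threshold in edgeR, and DESeq2 called Timp1, P4ha3 and Serpine2. Of 30 osteoblast and bone matrix genes tested, 24 were lower (5 with an unadjusted p below 0.05, where the background was 2.13%), with a median log2 fold change of -0.21. Of 23 fibrillar and network collagens, 20 were lower (4 with an unadjusted p below 0.05), with a median of -0.33. Of 41 matrix glycoproteins and crosslinking enzymes, 32 were lower (9 with an unadjusted p below 0.05), with a median of -0.20. Of 29 matrix proteases and inhibitors, 22 were lower (5 with an unadjusted p below 0.05, and 1 higher), with a median of -0.22. With the flow cell term the medians were -0.18, -0.11, -0.05 and -0.10 in the same order, and the collagen median was -0.18 without DOX1X 2.

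Ibsp, a sialoprotein of mineralising bone, was at 7357, 6782 and 5237 CPM in DOX1X and 5169, 3699, 4634 and 4005 CPM in DOX4X, with 5778, 6724, 8003 and 6602 CPM in PBS. The DOX1X 3 library was barely above the highest DOX4X library, and the log2 fold change was -0.56 (SE 0.16, 95% interval -0.90 to -0.22), or -0.26 within flow cell 2 alone. Spp1, which encodes osteopontin, was at 3889.8, 4042 and 4088 CPM in DOX1X and 3143, 3121, 2759 and 1625 CPM in DOX4X, with 7753, 8849, 9642 and 5641 CPM in PBS. The 3 groups were in the order PBS, DOX1X, DOX4X without overlap. Between the schedules the log2 fold change was -0.59 (SE 0.22, 95% interval -1.07 to -0.11, edgeR adjusted p = 0.990), while DOX4X against PBS gave -1.58 (edgeR adjusted p = 0.0374) and DOX1X against PBS -0.99 (edgeR adjusted p = 0.515). Runx2, the transcription factor that commits cells to bone, was at 202, 172 and 192 CPM and 168, 156, 157 and 172 CPM (log2 -0.21, 95% interval -0.37 to -0.04). Mepe, a matrix protein of osteocytes, was low throughout, at 1.08, 0.940 and 1.29 CPM in DOX1X and 0.22, 0.293, 0.211 and 0.463 CPM in DOX4X (log2 -1.88, SE 0.59).

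In several other bone genes the interval of the difference included 0. Col1a1, the main collagen chain of bone, was at 3686, 4191 and 1956 CPM in DOX1X and 2639, 3320.0, 877 and 2488 CPM in DOX4X, and its 95% interval was wide (-1.72 to 0.74 on the log2 scale), with DOX4X 3 well below the other three. Its log2 fold change was -0.49, and 0.25 with the flow cell term, which turned its direction. Alpl, the phosphatase of mineralisation, had a log2 fold change of -0.06 (95% interval -0.63 to 0.50), and Bglap, which encodes osteocalcin and has near-identical neighbouring copies, 0.24 (-0.57 to 1.04). Sp7, the osteoblast transcription factor osterix, had -0.29 (-0.60 to 0.02). With the flow cell term these were 0.12 for Alpl, -0.08 for Bglap and -0.04 for Sp7, so that Alpl and Bglap turned direction.

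Among enzymes that process matrix, Timp1, an inhibitor of metalloproteinases, was at 33.2, 47.2 and 39.3 CPM in DOX1X and 27.9, 26.7, 23.9 and 23.4 CPM in DOX4X, with 55.3, 59.0, 68.2 and 48.7 CPM in PBS. The groups again stood in the order PBS, DOX1X, DOX4X with no overlap. The log2 fold change between the schedules was -0.65 (SE 0.13, edgeR adjusted p = 0.886), with -1.18 for DOX4X against PBS (edgeR adjusted p = 0.0170) and -0.54 for DOX1X against PBS (edgeR adjusted p = 0.515). P4ha3, a subunit of the prolyl hydroxylase that stabilises collagen, was at 31.7, 32.4 and 25.0 CPM in DOX1X and 17.7, 16.9, 18.8 and 17.7 CPM in DOX4X, with 32.0, 32.1, 49.7 and 31.9 CPM in PBS. DOX4X libraries lay within 16.9 to 18.8 CPM, and the log2 fold change was -0.74 (SE 0.16), or -0.49 within flow cell 2 alone. Mmp13, a collagenase of bone remodelling, was at 1558, 2093 and 2528 CPM in DOX1X and 1896, 1726, 1133 and 1491 CPM in DOX4X, with 3193, 3852, 4373 and 3663 CPM in PBS. The schedules overlapped (log2 -0.40, 95% interval -0.82 to 0.02), and both stood below every PBS library, with -0.70 between the schedules under the flow cell term. Mmp9, a gelatinase, gave -0.65 (-1.26 to -0.03), with -0.10 within flow cell 2 alone. Serpine2, a protease inhibitor, was at 6888, 6928 and 5759.9 CPM and 4803, 4535, 4528 and 5119 CPM (log2 -0.46, SE 0.12), with -0.28 within flow cell 2 alone.

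The windows before the transcription start of 2 endothelial markers and 2 matrix genes are shown because these genes lay on opposite sides of the comparison. They are the 250 bases before the most upstream start, from RefSeq on GRCm38.p6, which is not the build of the counts. Capitals mark the words AGGAAG and CGGAAG, which contain the core bound by ETS factors, read on both strands. The 2 words share their last bases and cannot match at the same place on a strand.
Eng, plus strand, chr2:32646345-32646594: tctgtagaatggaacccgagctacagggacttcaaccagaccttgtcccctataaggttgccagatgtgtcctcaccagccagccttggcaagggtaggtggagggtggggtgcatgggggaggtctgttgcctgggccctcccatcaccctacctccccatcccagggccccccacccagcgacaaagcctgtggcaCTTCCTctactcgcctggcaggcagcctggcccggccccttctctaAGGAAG
Emcn, plus strand, chr3:137340828-137341077: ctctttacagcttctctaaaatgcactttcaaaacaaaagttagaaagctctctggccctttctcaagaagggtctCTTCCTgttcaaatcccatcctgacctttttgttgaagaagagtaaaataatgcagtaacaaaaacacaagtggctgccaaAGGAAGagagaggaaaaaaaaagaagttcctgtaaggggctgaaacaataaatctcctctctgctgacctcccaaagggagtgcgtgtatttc
Timp1, plus strand, chrX:20869916-20870165: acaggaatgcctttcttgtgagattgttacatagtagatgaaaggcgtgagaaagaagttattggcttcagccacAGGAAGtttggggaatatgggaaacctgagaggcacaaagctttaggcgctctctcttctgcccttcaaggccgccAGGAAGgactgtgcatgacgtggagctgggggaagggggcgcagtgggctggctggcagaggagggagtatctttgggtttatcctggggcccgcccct
P4ha3, plus strand, chr7:100285270-100285519: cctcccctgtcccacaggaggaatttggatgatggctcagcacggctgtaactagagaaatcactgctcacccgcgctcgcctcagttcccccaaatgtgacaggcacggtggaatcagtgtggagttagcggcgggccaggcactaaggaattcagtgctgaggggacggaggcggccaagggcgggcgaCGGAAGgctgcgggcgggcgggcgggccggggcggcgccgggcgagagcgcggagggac
The window held 2 matches in Eng, 2 in Emcn, 2 in Timp1 and 1 in P4ha3. Of all 27025 genes with such a window, 10527 (39.0%) held at least 1 match. Of the endothelial markers 14 of 23 were in the sequence table, and 8 of those held a match. Of the 10 genes lowest by p 7 were in the table, and 5 held a match. Of the 10 highest by p 6 were in the table, and 2 held a match. The words were thus found on both sides of the comparison, and a match is a description of the letters, not of binding.

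The 10 genes lowest in DOX4X by p also had an edgeR adjusted p of 0.886 each, with log2 fold changes from -0.34 to -1.15. Of them DESeq2 called A2m (DESeq2 adjusted p = 0.00385), Timp1, P4ha3 and Gpr27 and not the others. Over all 17838 genes it called 7 in this direction. None of the 10 passed with limma-voom. A2m, a broad protease inhibitor of plasma, was at 645, 610.4 and 611 CPM in DOX1X and 213, 192, 384 and 329 CPM in DOX4X, with 524, 669.9, 920.0 and 651 CPM in PBS. The log2 fold change was -1.15 (SE 0.23, 95% interval -1.67 to -0.64), the largest in size of the 10, and it stayed between -1.35 and -1.01 under all alternatives. Against PBS, A2m differed by -1.31 in DOX4X (edgeR adjusted p = 0.0523) and -0.15 in DOX1X. Gpx3, a secreted glutathione peroxidase, was at 7155, 6736 and 6849 CPM in DOX1X and 4887, 3901, 4914 and 5369.5 CPM in DOX4X, with 6077, 6956, 8536 and 7940.5 CPM in PBS (log2 -0.54, SE 0.13). The plot of bone and matrix genes by library shows that in A2m and Gpx3 the DOX1X libraries lay within the PBS range and the DOX4X libraries below it.

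Prrx1, a transcription factor of limb and marrow mesenchyme, was at 210.1, 189.7 and 195 CPM in DOX1X and 169, 142, 157 and 159 CPM in DOX4X (log2 -0.34, SE 0.08). Ddr2, a receptor for fibrillar collagen, was at 322, 264 and 282 CPM and 220.4, 194, 236 and 215 CPM (log2 -0.42, SE 0.10). Col12a1, a collagen that coats fibrils, was at 204, 272 and 195 CPM and 146, 166, 141 and 151 CPM (log2 -0.57, SE 0.14). Col12a1 gave -0.37 with the flow cell term. Epb41l3 (-0.34), Gpr27 (-0.42) and Palld (-0.41, and -0.26 with the flow cell term), an actin-binding scaffold, completed the 10. Of other matrix genes, fibrillin Fbn1 was at 1266, 1175 and 1226 CPM in DOX1X and 853, 869, 865 and 1127 CPM in DOX4X, where DOX4X 4 stood apart from the other three. Col6a2, a chain of the beaded collagen VI, was at 998, 1102 and 969 CPM and 697, 697, 662 and 974 CPM, and again DOX4X 4 alone reached the DOX1X range. Bmp1, the protease that trims procollagen, had a log2 fold change of -0.31 (SE 0.09) without overlap.

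**Figure D3:**
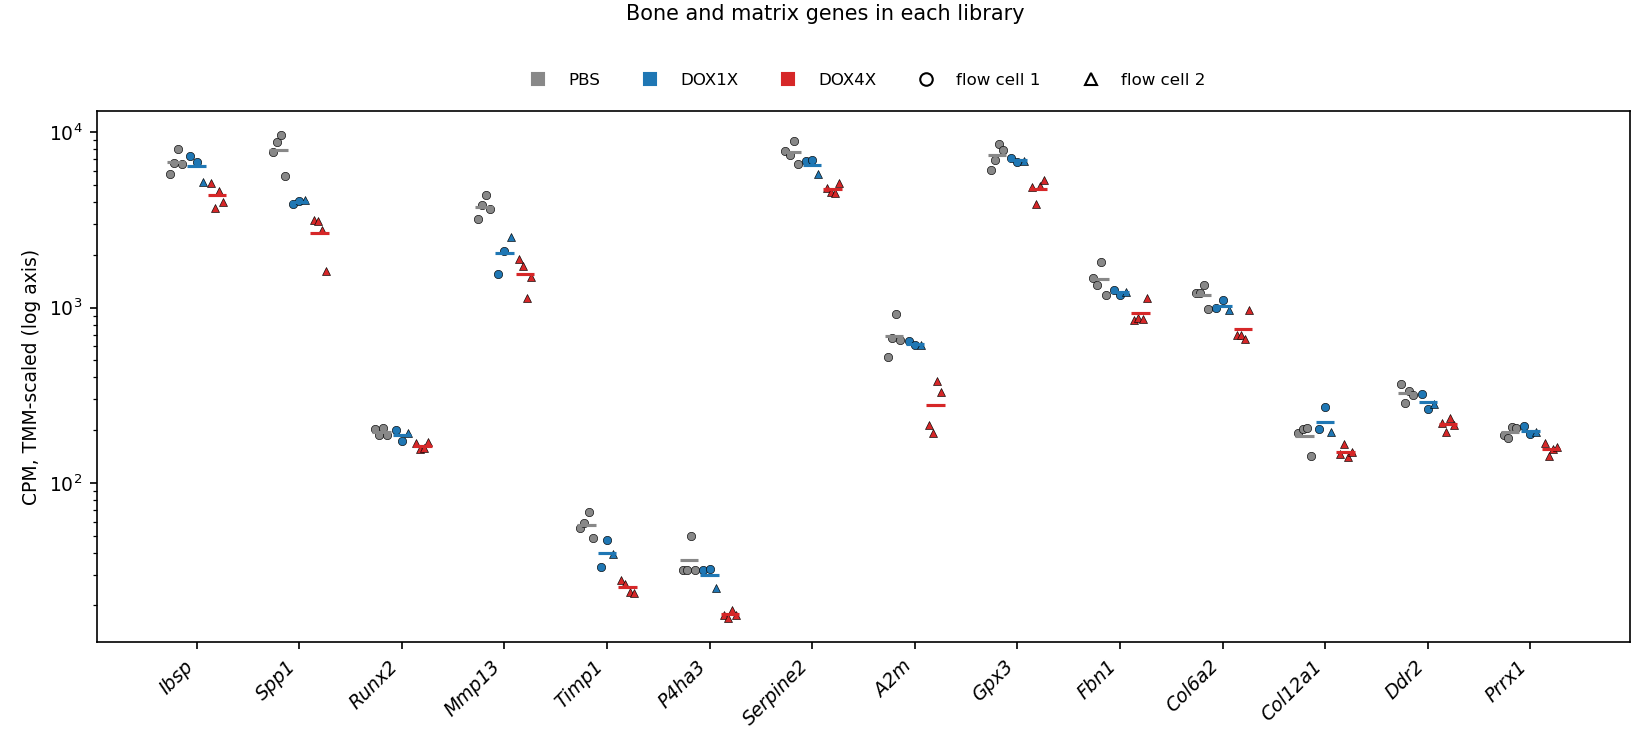
Levels of 14 bone and matrix genes in TMM-scaled CPM on a log axis. Each point is a library (circle, flow cell 1; triangle, flow cell 2), coloured by group, and bars are group means; Spp1 and Timp1 step down from PBS to DOX1X to DOX4X, whereas in A2m and Gpx3 only DOX4X lies below the PBS range.

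Immediate early genes, which rise within minutes of a stimulus and also during tissue digestion, leaned lower with 4 doses. Of 27 such genes, 23 were lower, 7 with an unadjusted p below 0.05 and 8 without overlap (2.13% and 2.79% over all genes), with a median log2 fold change of -0.20, or -0.40 with the flow cell term. No member passed the adjusted threshold in edgeR. Socs3, the feedback inhibitor of cytokine receptors, was at 775, 625 and 573 CPM in DOX1X and 350.2, 471, 407 and 459 CPM in DOX4X, with 504, 508, 687 and 754 CPM in PBS (log2 -0.64, SE 0.17). Egr2, a zinc finger transcription factor, was at 28.6, 15.6 and 29.0 CPM and 10.2, 13.7, 11.3 and 13.6 CPM, with 20.1, 12.6, 21.1 and 31.4 CPM in PBS (log2 -1.0, SE 0.28). Junb, a subunit of AP-1, was at 1081, 1117 and 1218 CPM and 875, 909, 752 and 968 CPM (log2 -0.38, SE 0.14), and Zfp36, which destabilises cytokine mRNAs, had -0.39 (SE 0.14). The schedules did not overlap in these 4 genes. All libraries were digested at 37 °C for 25 min before sorting, and the part of digestion in these values was not tested.

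The stromal identity and niche genes had a median close to 0. Of 26 tested, 11 were higher and 15 lower, with a median log2 fold change of -0.05, or 0.10 with the flow cell term. At an unadjusted p below 0.05 in edgeR there were 2 lower (2.13% over all genes) and 0 higher (2.23%). Without overlap between schedules there were 3 lower (2.79% over all genes) and 0 higher (3.19%). None passed the adjusted threshold in edgeR. Cxcl12, the chemokine that retains stem cells, was at 59804, 52225 and 48119.6 CPM in DOX1X and 46059, 46437, 50757 and 57087 CPM in DOX4X (log2 -0.09, 95% interval -0.36 to 0.18). Kitl, the ligand of the stem cell receptor Kit, was at 1299, 1254 and 1077 CPM and 1068, 1157, 1031 and 1166 CPM (log2 -0.13, -0.36 to 0.09). Lepr itself was at 6630.4, 5655 and 3939 CPM and 5494, 4667, 5407 and 4631 CPM (log2 -0.10, -0.48 to 0.29), with DOX1X 3 the lowest library of the series. The 3 genes turned direction with the flow cell term, to 0.06, 0.04 and 0.36 in the same order. For Cxcl12 and Kitl the intervals without that term did not reach beyond 0.36 log2 units in either direction.

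The other cytokines of the niche gave Il7 -0.16 (-0.52 to 0.20), which B cell progenitors need, Csf1 -0.08 (-0.36 to 0.20), the macrophage growth factor, and Angpt1 0.00 (-0.27 to 0.27), a ligand of the vascular receptor Tek. Vcam1, an adhesion molecule for blood cells, gave 0.20 (-0.10 to 0.50). With the flow cell term these were -0.30 for Il7, 0.09 for Csf1, 0.19 for Angpt1 and 0.49 for Vcam1, so that Csf1 turned direction. Ptn, the heparin-binding growth factor pleiotrophin, was at 64.9, 82.4 and 57.7 CPM in DOX1X and 43.3, 38.9, 47.9 and 35.7 CPM in DOX4X (log2 -0.72, SE 0.29, and -0.48 with the flow cell term), without overlap, and PBS spread across both groups at 42.0, 66.2, 130.4 and 80.6 CPM. Ebf3, a transcription factor that keeps these cells from turning to bone, gave -0.34 (SE 0.20). Fam20c, a kinase of secreted proteins, was at 34.0, 33.0 and 32.4 CPM and 35.0, 28.4, 27.7 and 29.1 CPM, against 109.7, 81.3, 88.4 and 39.4 CPM in PBS. Both schedules lay below every PBS library in Fam20c, and they differed from each other by -0.14 (95% interval -0.68 to 0.41).

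**Figure D4:**
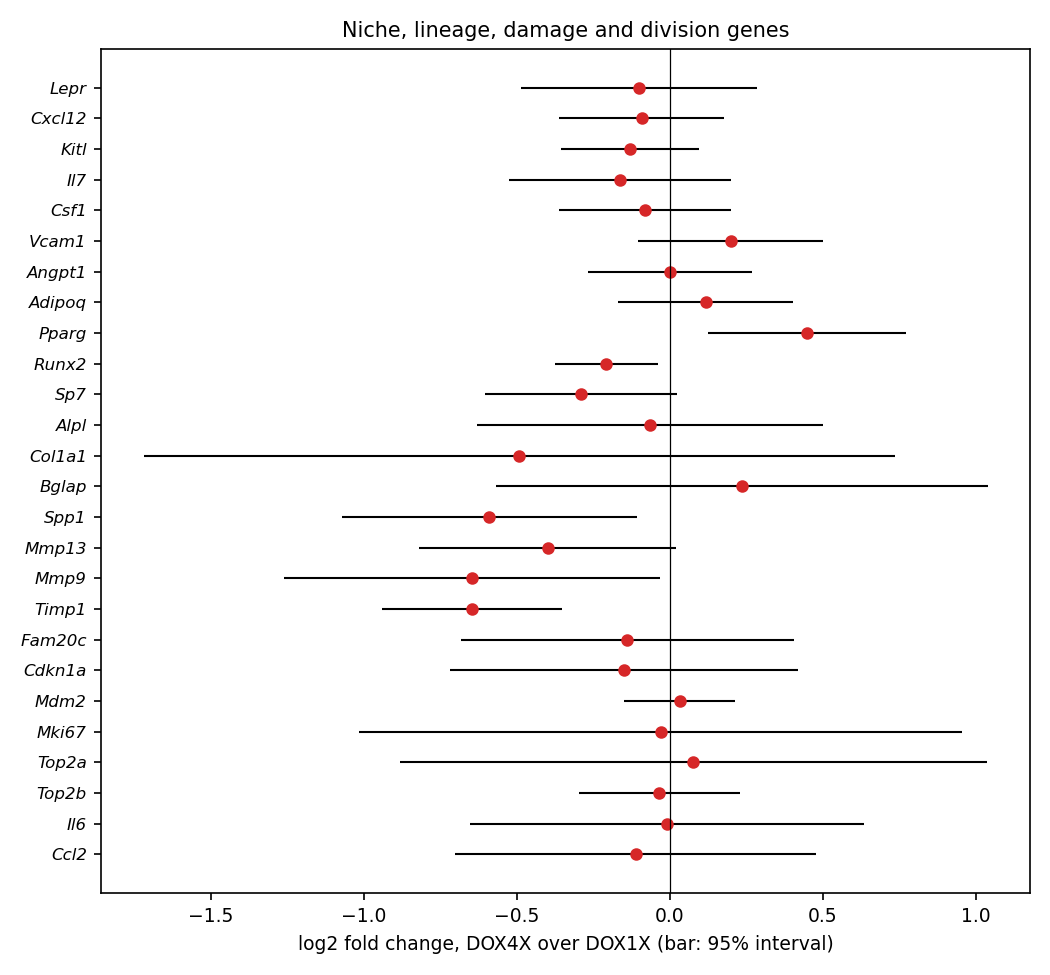
Log2 fold change of DOX4X over DOX1X for 26 genes of the niche, the bone and fat lineages, matrix turnover, DNA damage, division and inflammation. Points are estimates from the edgeR fit over 4 DOX4X and 3 DOX1X libraries and bars their 95% intervals without adjustment for many genes. The intervals of Cxcl12 and Kitl are narrow around 0. Those of Timp1, Spp1, Runx2 and Mmp9 lie wholly below 0, and that of Pparg lies wholly above 0.

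No gene of the damage response lists passed the threshold in edgeR. Of 35 p53 targets, 18 were higher and 17 lower in DOX4X, 1 in each direction with an unadjusted p below 0.05 in edgeR. Over all genes these shares were 2.23% higher and 2.13% lower. The median log2 fold change of the list was 0.0031, or -0.02 with the flow cell term. Cdkn1a, the p53-induced cell cycle inhibitor p21, was at 159, 109.8 and 201 CPM in DOX1X and 173, 94.1, 151 and 147 CPM in DOX4X, with 109.6, 133, 208 and 124 CPM in PBS. The 3 groups overlapped, and the log2 fold change was -0.15 (95% interval -0.72 to 0.42). Mdm2, the ligase that degrades p53, was at 67.8, 59.4 and 61.5 CPM and 68.0, 61.1, 62.8 and 65.4 CPM (log2 0.03, -0.15 to 0.21). Cdkn1a gave -0.51 and Mdm2 0.06 with the flow cell term. Ccng1, a p53-induced cyclin, gave -0.19 (SE 0.07), and Xpc, a damage sensor of nucleotide excision repair, 0.24 (SE 0.10). Of 36 DNA repair and damage signalling genes, 30 were higher by small amounts, 0 with an unadjusted p below 0.05 in edgeR and 0 by DESeq2 or limma-voom, with a median of 0.05. That median was 0.30 with the flow cell term and -0.04 without DOX1X 3, where its sign changed.

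The topoisomerase targets and the handling of anthracyclines gave a median of 0.05 over 26 genes, 16 of them higher. Top2b, the topoisomerase II form found also in cells that do not divide, was at 233, 249 and 193 CPM in DOX1X and 243, 234, 181 and 221 CPM in DOX4X (log2 -0.03, 95% interval -0.30 to 0.23), with 0.19 in the other direction under the flow cell term. Abcb1b, a drug efflux pump, was at 7.80, 5.73 and 6.97 CPM and 7.68, 13.1, 11 and 7.38 CPM (log2 0.52, SE 0.22). Abcc3, another exporter of the family, was at 0.881, 0.879 and 1.5 CPM and 2.48, 5.03, 2.95 and 2.56 CPM (log2 1.58, SE 0.50), and Nos3, the nitric oxide synthase of endothelium, at 0.391, 0.728 and 1.18 CPM and 1.62, 3.28, 1.77 and 2.02 CPM (log2 1.5, SE 0.48). Both were without overlap, Nos3 gave 0.88 with the flow cell term, and the part of endothelial RNA in them was not tested.

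The median of the cell division genes changed sign when single libraries were left out. Of 38, 34 were higher in DOX4X and 0 had an unadjusted p below 0.05 in edgeR (0 called by DESeq2 or limma-voom), with a median log2 fold change of 0.12. Mki67, a marker of dividing cells, was at 41.2, 43.6 and 15.6 CPM in DOX1X and 53.4, 38.6, 15.1 and 24.1 CPM in DOX4X, with 19.6, 28.0, 19.7 and 10.1 CPM in PBS (95% interval -1.02 to 0.96). Top2a, the topoisomerase II of dividing cells, was at 90.2, 82.0 and 34.8 CPM and 115, 80.8, 40.7 and 54.3 CPM (95% interval -0.88 to 1.04). DOX1X 3 was the lowest single-dose library in both, and the list median was -0.17 without it, -0.11 without DOX4X 1, and 1.04 with the flow cell term, where Mki67 gave 1.07 and Top2a 1.07. The erythroid list moved alongside: its sum was 1149.8, 1238 and 487 CPM in DOX1X and 1596, 1383, 636 and 893 CPM in DOX4X, its median 0.19, and 1.32 with the flow cell term. Sums of the neutrophil list and of the monocyte and macrophage list were also lowest in DOX1X 3 among single-dose libraries. Among four-dose libraries they were highest in DOX4X 1 and 2, as were the erythroid sums. The B lineage sums did not follow this order. Whether the dividing cells were stromal, erythroid or of another blood lineage was not tested.

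No gene of the inflammatory and secretory lists passed the adjusted threshold in edgeR, and DESeq2 called only Timp1 and Serpine2 among them. Of 31 senescence and secretory phenotype genes, 22 were lower in DOX4X (5 with an unadjusted p below 0.05, against 2.13% of all genes), with a median of -0.19, or -0.10 with the flow cell term. The lowest p values in it belonged to Timp1, Serpine2, Spp1 and Mmp9, which the matrix and bone lists also hold. Il6, an inflammatory cytokine, gave -0.01 (95% interval -0.65 to 0.63) and Ccl2, a monocyte chemokine, -0.11 (-0.70 to 0.48), and with the flow cell term -0.18 and -0.04. The medians were 0.04 for 24 genes of the NF-kB response, 0.11 for 29 of the type I interferon response, -0.05 for 25 other chemokine ligands, 0.02 for 23 complement genes and -0.06 for 22 of antigen presentation. These 5 medians, fitted with the flow cell term, were -0.04, -0.26, -0.03, -0.06 and -0.18 in the same order, so that the NF-kB, interferon and complement medians changed sign.

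No gene of the metabolic and signalling lists passed the threshold in edgeR. The medians were 0.03 for 40 nuclear genes of oxidative phosphorylation, -0.10 for 11 mitochondrially encoded genes, -0.01 for 23 sterol genes, -0.01 for 27 antioxidant genes and -0.04 for 22 of the unfolded protein response. They were -0.05 for 38 genes of BMP and TGF-beta signalling, -0.06 for 37 of Wnt signalling and 0.05 for 39 guidance signals. Under the flow cell term the last 3 were 0.14, 0.09 and 0.17, the sterol and antioxidant medians were 0.01 and 0.03, and the mitochondrially encoded median was -0.25. The signalling, sterol and antioxidant medians thus changed sign, except that of the guidance signals. In the guidance list Robo1, a receptor for Slit, was at 35.6, 37.7 and 37.6 CPM in DOX1X and 28.2, 29.3, 26.4 and 34.9 CPM in DOX4X (log2 -0.32, SE 0.10), and Efna1, an ephrin ligand, had 0.55 (SE 0.19, and 0.25 with the flow cell term). Over all lists together, 841 genes were tested, none of which passed in edgeR. DESeq2 called 5 of them (Cdh5, P4ha3, Sema3f, Serpine2 and Timp1) and limma-voom 0. Of the 841, 47 were higher and 43 lower at an unadjusted p below 0.05, where the shares over all genes were 2.23% and 2.13%.

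Blood cell markers ranged widely among the animals of each schedule. Over 13 megakaryocyte and platelet markers, 12 of them tested, the sums were 462, 2127 and 387 CPM in DOX1X and 659, 338, 119 and 539.6 CPM in DOX4X. All 12 were lower in DOX4X, 1 with an unadjusted p below 0.05 in edgeR, where the share over all genes was 2.13%. Their median log2 fold change of -1.22 became -0.09 without DOX1X 2 and 0.14 with the flow cell term. Tubb1, the tubulin of platelets, was at 8.00, 125 and 16.6 CPM in DOX1X and 7.65, 15.2, 1.44 and 8.53 CPM in DOX4X (log2 -2.60, and -1.02 with the flow cell term). Over 18 neutrophil markers the sums were 948, 811 and 257 CPM and 1099, 974, 306 and 279 CPM, with a median of -0.82 that became -0.42 without DOX1X 1 and 0.49 with the flow cell term. Ngp, a protein of neutrophil granules, was at 83.7, 59.7 and 9.99 CPM and 41.5, 15.8, 9.81 and 5.42 CPM (log2 -1.49, and 0.86 with the flow cell term). In each schedule, high and low animals were mixed.

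B lineage markers summed to 899.7, 1343 and 923 CPM in DOX1X and 651, 1204, 714 and 959.8 CPM in DOX4X, with a median of 0.37 over 23 genes that became -0.03 without DOX4X 2 and 0.80 with the flow cell term. Cd79b, a chain of the B cell receptor complex, was at 19.1, 21.0 and 11.7 CPM and 19.8, 42.8, 13.3 and 20.4 CPM. The medians of the remaining lists were 0.08 for 22 T and natural killer cell markers, 0.18 for 15 monocyte and macrophage markers, 0.16 for 7 osteoclast markers, -0.37 for 9 Schwann cell markers, 0.01 for 14 fibroblast and periosteal markers and -0.13 for 9 cartilage genes. With the flow cell term they were 0.97, 0.24, 0.35, 0.34, -0.01 and 0.13 in the same order, so that the Schwann, fibroblast and cartilage medians changed sign. None of these markers passed the threshold in edgeR, DESeq2 or limma-voom. Mean log2 blood marker scores, centred over the 11 libraries, were 0.85, 0.59 and -0.31 in DOX1X and 0.59, 0.77, -0.25 and -0.09 in DOX4X, so each schedule held animals above and below the centre.

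**Figure D5:**
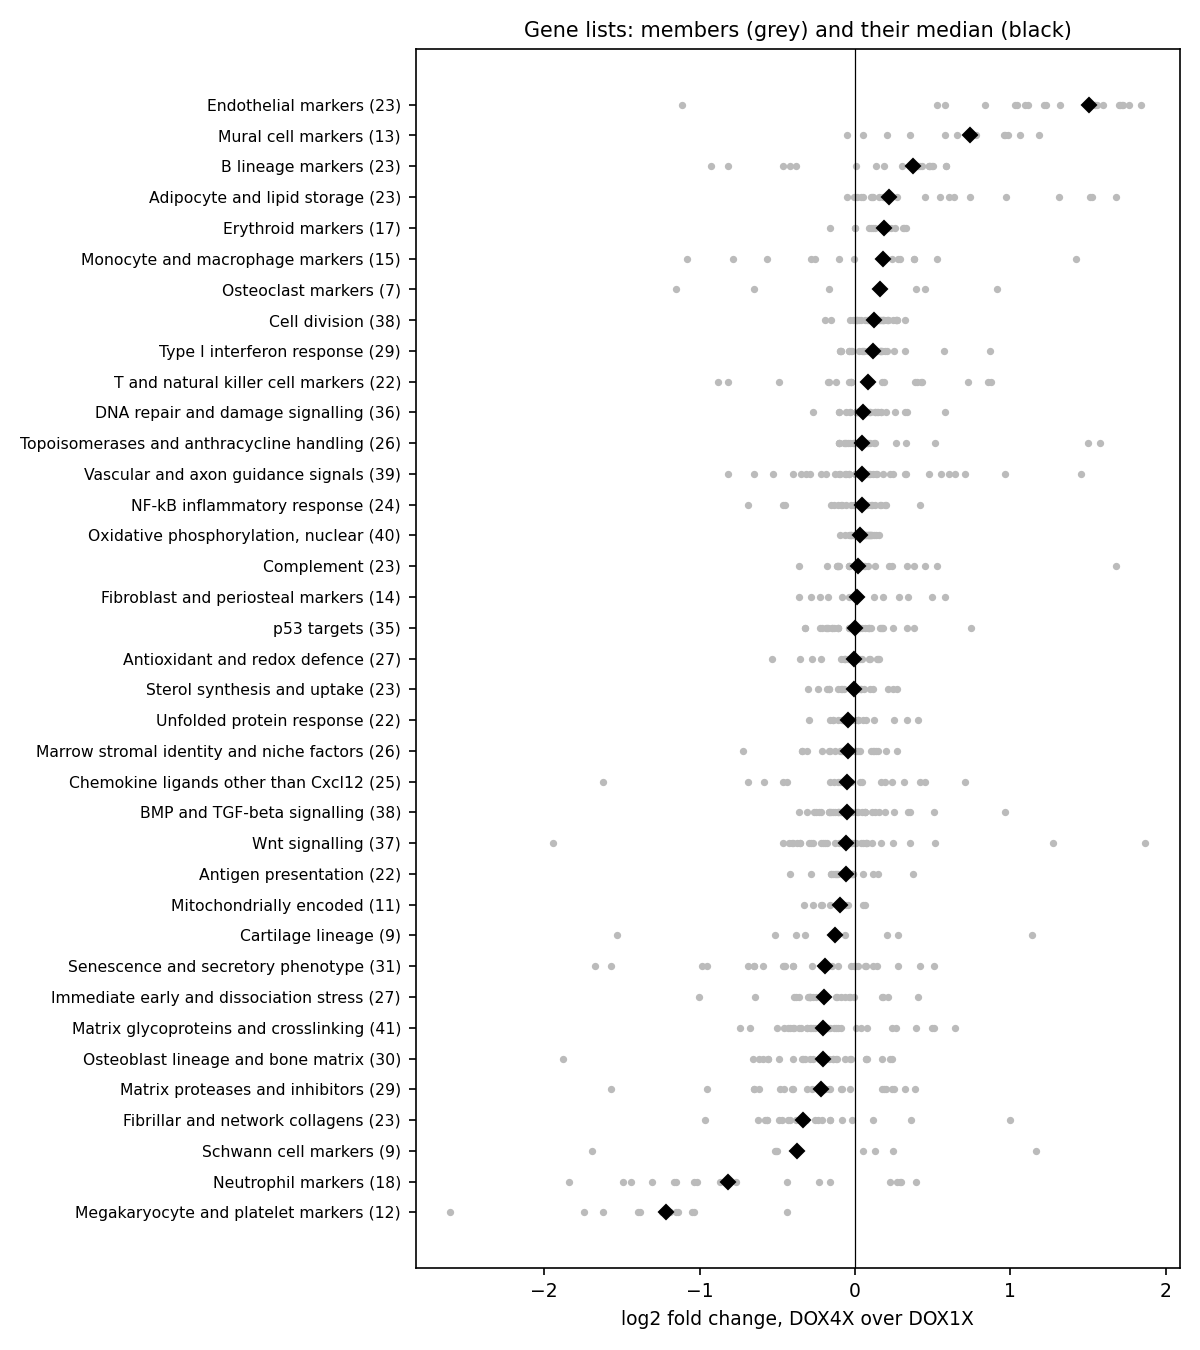
Log2 fold change of DOX4X over DOX1X for each member (grey) of 37 gene lists and the list median (black diamond), ordered by median, with the number of genes tested in brackets. Endothelial and mural markers lie furthest to the right and megakaryocyte and neutrophil markers furthest to the left, while p53 targets, oxidative phosphorylation and niche factors centre near 0.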

How the data were processed

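RNA-seq was made from sorted marrow stromal cells with SMART-Seq v4 Plus, per the labels' protocols. The authors deposited raw counts per gene with no normalization, for 24718 genes. The submitters' processing notes name featureCounts 2.0.1, STAR 2.7.9a, SAMtools 1.17, Trim Galore 0.6.6, MultiQC 1.7 and FastQC 0.11.5 and the build GRCm39, with no roles given. How strand and multi-mapping reads were handled, and which annotation was used, is not stated in the sources used here.

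Genes were filtered with filterByExpr (17838 kept, over 99.9% of counts), scaled by TMM and fitted over all 11 libraries with group means in edgeR 4.0.16 (R 4.3.3, glmQLFTest, two-sided, Benjamini-Hochberg over all genes, threshold 0.05). Intervals of fold changes are 95% and unadjusted. Shares have exact Clopper-Pearson intervals. A set of 37 gene lists was described by counts and medians, with no list test. The gene members and lists were chosen with earlier results of these data known. Named genes are those past the threshold (up to 30), up to 4 by p from each of a part of the lists, and 26 key genes. Lists such as senescence, interferon, NF-kB, BMP and TGF-beta, Wnt and complement gave none by the rule of 4. Also named are the 10 higher and 10 lower by p with a mean of at least 5 CPM over the doxorubicin libraries. Clone names (Gm and Rik) and antibody and T cell receptor segments were left out of these rankings. The endothelial exception, the antibody genes other than Ighv5-17 and the printed promoters were picked with their values in view. The alternatives tried were RLE and upper quartile scaling, no filter and a filter of 5 CPM in 3 libraries, DESeq2 1.42.0, limma-voom (limma 3.58.1), a robust prior, the 2 schedules alone, a replicate block, flow cell as a term or flow cell 2 alone, a blood marker covariate, other-cell markers left out, a threshold of 0.10 and each library left out. The procedure was tested on simulated data.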

Additional observations from a re-analysis of the deposited data

Results flagged for a closer look

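Among 316 sets of values checked (the named genes and the summed lists, in the groups of 4), 11 had a library far from the other three, where chance alone flags about 1 in 20. In DOX4X, library 4 was high for Fbn1 (1127 CPM against 853 to 869), Col6a2 (974 CPM against 662 to 697) and Ngfr (1.14 CPM against 0.234 to 0.358). DOX4X 2 was high for Ms4a1, a B cell surface protein (34.1 CPM against 13.1 to 15), and low for Adamts4, a cartilage matrix protease (38.2 CPM against 54.8 to 56.0). In PBS, library 3 was high for P4ha3 (49.7 CPM against 31.9 to 32.1) and Fbn2 (73.0 CPM against 52.9 to 55.9). PBS 1 was high for Ncr1, a natural killer cell receptor (0.507 CPM against 0.0667 to 0.129), for the summed stromal identity list (93524 CPM against 81117 to 83187) and for the summed chemokine ligands (4233 CPM against 3020 to 3109). PBS 4 was low for Top2b (198 CPM against 235 to 240).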

How the results depend on the processing

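The number of genes past the threshold was 1 under every alternative except 27 with DESeq2, 2 with the replicate block and 2 without DOX1X replicate 1; leaving out each library in turn gave 1 to 2. Within flow cell 2 alone the 1 gene was Ighg1 and not Ighv5-17. The cause of these changes was not tested. Ighv5-17 passed under every other alternative, with a log2 fold change between -5.54 and -4.34. The endothelial median stayed positive, from 0.92 with the flow cell term to 1.82 without DOX1X replicate 3. Of 121 named genes, 93 kept their sign under all alternatives run for them, as did 13 of 37 list medians. Same-numbered libraries of DOX1X and DOX4X had correlations of deviations of 0.084, 0.167 and 0.347, not all above 0.1, and not every library correlated best with its own number, so the numbers were not taken as pairs; the block added Igkv14-126.

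Without other-cell markers no endothelial median exists, since the markers themselves are left out. The single-dose group has 3 libraries and only 1 on flow cell 2, so flow cell and schedule are separated by that library alone. For the median gene the unadjusted 95% interval reached 0.41 log2 units to either side, and larger differences also missed the adjusted threshold.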
